A study of Mus musculus with 192 samples.

Results

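Trp53, which encodes the transcription factor p53, and 8 genes that p53 is known to activate were followed through 96 single-cell wells of a mouse embryonic stem (ES) cell culture. The 9 genes were chosen by name: Trp53, Mdm2, Cdkn1a, Ccng1, Bax, Bbc3, Phlda3, Trp53inp1 and Perp, out of 24264 genes in the deposited table of molecule counts. All 9 were found there, and together they held 6428 molecules, or 0.0939% of all gene molecules. The cells were of the R1 line, grown in ES1 medium on irradiated feeder fibroblasts of mouse embryos and harvested at confluency. Feeders were let settle out, and dead and dying cells were depleted by annexin V before the suspension was frozen in DMSO, so the cells measured had been thawed. Single cells were caught on 1 microfluidic chip, and RNA was counted as molecules by random barcodes at the 5′ end. There was no genotype, drug or time contrast: the only 2 groups in the labels are the same 96 libraries sequenced as made and after 9 more cycles of PCR, and the table gives 1 column for both. The comparison made here was therefore between 45 low-RNA wells (at most 40000 gene molecules) and 51 RNA-rich wells (at least 50000), all from 1 culture, which is 1 sample. No p-value was computed, and intervals cover counting error only.

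p53 is held low in unstressed cells by Mdm2, a ubiquitin ligase that marks it for degradation and whose own gene p53 activates, so that both form a feedback loop. Damage to DNA and other stresses stabilise the protein, which then switches on genes that stop the cell cycle, start apoptosis or adjust repair and metabolism; the level of Trp53 RNA is thus no measure of p53 activity. Mouse ES cells are known for an abundant p53 protein and for an arrest in G1 that is weak after damage. Among the targets, Cdkn1a (p21) blocks cyclin-dependent kinases, Ccng1 (cyclin G1) brings a phosphatase to Mdm2, Bax opens the outer mitochondrial membrane and Bbc3 (Puma) is a BH3-only protein that sets Bax free. Phlda3 holds back the kinase Akt, Trp53inp1 assists p53 in stress and takes part in autophagy, and Perp is a membrane protein of desmosomes that also acts in apoptosis.

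The upstream sequences are shown because p53 acts by binding DNA near its targets. RefSeq start sites on GRCm38.p6 were available for 7 of the 9 genes, with 10 start sites in all, and the 250 bases before each were searched. The capitals below mark matches to the p53 half-site, a short palindromic motif that p53 binds in pairs, so that both strands are read at once. All are given 5′ to 3′ on the strand of the gene.
Cdkn1a, chr17:29090729-29090978, plus strand: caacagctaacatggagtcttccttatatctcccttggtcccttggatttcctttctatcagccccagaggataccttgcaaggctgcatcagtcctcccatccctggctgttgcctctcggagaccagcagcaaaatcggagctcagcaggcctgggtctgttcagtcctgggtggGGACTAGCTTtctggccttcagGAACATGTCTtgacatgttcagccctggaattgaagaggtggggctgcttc
Mdm2, chr10:117710759-117711008, minus strand: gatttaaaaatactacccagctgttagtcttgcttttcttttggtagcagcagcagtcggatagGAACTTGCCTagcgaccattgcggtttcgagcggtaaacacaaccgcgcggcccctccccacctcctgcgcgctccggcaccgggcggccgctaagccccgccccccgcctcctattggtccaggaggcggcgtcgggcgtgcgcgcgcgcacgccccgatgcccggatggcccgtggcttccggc
Ccng1, chr11:40755287-40755536, minus strand: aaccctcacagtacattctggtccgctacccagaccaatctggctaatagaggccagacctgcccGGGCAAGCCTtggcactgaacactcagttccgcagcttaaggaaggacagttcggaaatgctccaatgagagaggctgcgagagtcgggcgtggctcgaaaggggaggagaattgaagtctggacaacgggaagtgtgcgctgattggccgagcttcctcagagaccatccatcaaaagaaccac
Bax, chr7:45466899-45467148, minus strand: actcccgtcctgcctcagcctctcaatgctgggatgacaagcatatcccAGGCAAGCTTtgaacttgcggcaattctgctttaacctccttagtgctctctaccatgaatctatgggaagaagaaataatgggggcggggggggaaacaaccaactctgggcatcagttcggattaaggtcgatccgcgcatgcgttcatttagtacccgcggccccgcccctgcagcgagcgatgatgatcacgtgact
Trp53, chr11:69580109-69580358, plus strand: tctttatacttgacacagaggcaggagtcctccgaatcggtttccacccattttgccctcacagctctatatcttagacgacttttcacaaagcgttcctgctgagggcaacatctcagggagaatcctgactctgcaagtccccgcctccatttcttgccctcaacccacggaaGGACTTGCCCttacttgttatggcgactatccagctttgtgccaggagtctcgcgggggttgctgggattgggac

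The motif was found upstream of 5 of these genes, in 6 places. In Cdkn1a it began 73 and 51 bases before the upstream of its start sites, as GGACTAGCTT and GAACATGTCT, and the table lists Cdkn1a at that end of the gene; the window before the downstream start held none. In Mdm2 it began 186 bases, in Ccng1 185 bases, in Bax 201 bases and in Trp53 itself 75 bases before the start. The windows of Bbc3, at 3 start sites, and of Phlda3 held no match. The same motif occurred in 7.13% of 32851 windows of this length over all genes. Among other promoter motifs, TATAAA, on either strand, occurred in 1 of the 10 windows (Trp53) against 12.4% of all windows, and GGGCGG, on either strand, in 7 against 32.7%. Each match is a run of letters and was not tested as a binding site.

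In GENCODE M21 coordinates on GRCm38, Trp53 lies at chr11:69580359-69591873 on the plus strand and Ccng1 on the same chromosome at chr11:40748552-40755311 on the minus strand. Mdm2 (chr10:117688875-117710758, minus) and Perp (chr10:18845020-18857073, plus) share chromosome 10, and Bax (chr7:45461697-45466898, minus) and Bbc3 (chr7:16308393-16318205, plus) share chromosome 7. Cdkn1a lies at chr17:29090976-29100727, Phlda3 at chr1:135766119-135769136 and Trp53inp1 at chr4:11156431-11174379, all on the plus strand. Reads that match the genome once gave 89.7% of the molecules of Trp53, 98.8% of Ccng1, 99.8% of Bax and 100% of the other 6. Wrap53 lies on the opposite strand at the start of Trp53, and whether reads were assigned to genes by strand is not given in the sources used here.

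Low-RNA wells held 8774 to 35543 gene molecules (median 22234), and RNA-rich wells 51390 to 573648 (median 98750). Gene molecules per spike-in molecule, a measure of RNA content, had medians of 3.64 and 12.3 in low-RNA and RNA-rich wells, and mitochondrially encoded RNA made up medians of 29.1% and 10.4%. Images of the chambers were not used here, so wells without an intact cell were not set apart, and no doublet caller was run. All 13 ES cell markers were detected in both classes, with median sums of 55.1 and 95.5 molecules per 10000 gene molecules. Of 12 feeder fibroblast markers, 10 were detected in low-RNA wells (sums of 6.75 to 19.4) and 12 in RNA-rich wells (4.29 to 160). Some RNA-rich wells stood apart. E02 and D02 had feeder sums of 124 and 160. In 9 wells the summed Krt8 and Krt18 level was at least 20 (keratin-high). C03 and H03 had far more spike-in molecules than the others, and stayed in the sets of wells below unless said otherwise. H03, with the most gene molecules of any well (573648), held 10.4% of the Trp53 and 12.2% of the Bbc3 molecules in RNA-rich wells. Relative to that total it did not stand out. Per 10000 gene molecules it had 1.67 of Trp53 and 0.593 of Bbc3, beside 1.58 and 0.476 over all RNA-rich wells.

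Every level below is a number of molecules per 10000 gene molecules. At the pooled level (summed molecules over summed totals), 8 of the 9 genes were lower in low-RNA than in RNA-rich wells, with folds from 0.462 for Phlda3 to 1.02 for Trp53inp1 and a median of 0.671. Most genes of the table shared that direction: 71% of 8276 tested had a fold below 1, and their median was 0.760. By a limit of 1.5-fold, Cdkn1a, Bax, Phlda3 and Perp were lower (4 of 9) and none was higher (0 of 9), where 38% of all genes were lower and 10.7% higher. A share of 4 in 9 is near that background and is no result about these genes. The mitochondrial share, which enters the total, differed between the classes as given above: with mitochondrially encoded genes and Rn45s left out of the total, 13.9% of all genes were lower and 22.1% higher, the median of all genes was 1.02, and of the 9 genes only Phlda3 was past the limit (0.620), while Mdm2, Ccng1, Bbc3 and Trp53inp1 had folds above 1 (1.09 to 1.36).

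**Figure D1:**
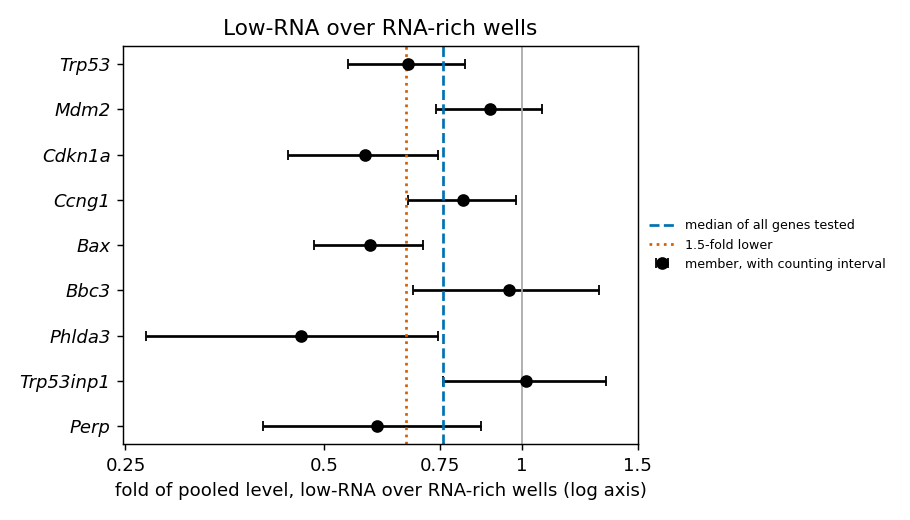
Fold of the pooled level, low-RNA over RNA-rich wells, for the 9 genes (points, log axis) with 95% counting intervals. The dashed line is the median of all genes tested (0.760) and the dotted line the 1.5-fold limit; the points of Cdkn1a, Bax, Phlda3 and Perp lie left of the limit, and the intervals of Mdm2, Bbc3 and Trp53inp1 cover a fold of 1.

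Trp53 was seen in 39 of 45 low-RNA wells, at levels of 0 to 3.10 with a median of 0.900, and in all 51 RNA-rich wells, at 0.411 to 3.96 with a median of 1.42. The classes overlapped over most of their range, and the pooled level was 1.06 (95% interval 0.868 to 1.28) against 1.58 (1.48 to 1.68), a fold of 0.671 (0.544 to 0.820). Mdm2, its inhibitor and target, was closer to even. It was seen in 40 of 45 low-RNA wells and ranged from 0 to 5.25 there (median 1.14), and from 0.106 to 9.98 (median 1.21) in RNA-rich wells, with a fold of 0.894 (0.741 to 1.07). The RNA-rich maximum was well A03, more than any other well; the next was D08 at 4.77.

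Of the genes of cell cycle arrest and feedback, Cdkn1a had a median of 0.570 in low-RNA wells (0 to 2.87) and 0.553 in RNA-rich wells (0.0792 to 24.8). The medians were thus alike, while the pooled fold was 0.578 (0.442 to 0.746). The means of the wells' levels, in which every well counts the same, also differed, at 0.676 in low-RNA and 1.35 in RNA-rich wells. Well E02 alone held 135 molecules, 20.5% of those in RNA-rich wells, and without it the pooled level of RNA-rich wells was 0.906 (0.830 to 0.987) in place of 1.13, and the fold 0.721, short of the 1.5-fold limit. Ccng1 had levels of 0 to 5.05 (median 1.01) in low-RNA wells and 0.110 to 6.98 (median 1.39) in RNA-rich wells, a fold of 0.815 (0.672 to 0.981). Its ranges overlapped nearly end to end.

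Among the genes of apoptosis, Bax gave the most molecules of the 9 (1311). It had levels of 0 to 2.94 (median 1.16) in low-RNA wells and 0.663 to 4.55 (median 1.76) in RNA-rich wells, and a fold of 0.587 (0.483 to 0.708). Bax was detected in every RNA-rich well, as were Trp53, Mdm2, Cdkn1a and Ccng1. Bbc3 was sparser, seen in 21 of 45 low-RNA wells (0 to 2.58, median 0) and 44 of 51 RNA-rich wells (0 to 2.37, median 0.320), and its fold was 0.956 (0.684 to 1.31). The 2 partners of the mitochondrial step thus had folds on different sides of the limit, though their intervals overlap.

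Phlda3 had the lowest fold, 0.462 (0.269 to 0.747), from only 18 molecules in 13 of 45 low-RNA wells (0 to 1.19, median 0) against 225 molecules in 46 of 51 RNA-rich wells (0 to 2.70, median 0.245). Trp53inp1 was even, with 0 to 3.70 (median 0.406) in low-RNA wells and 0 to 1.89 (median 0.420) in RNA-rich wells and a fold of 1.02 (0.759 to 1.34). Perp had levels of 0 to 1.46 (median 0) in low-RNA wells and 0 to 3.50 (median 0.334) in RNA-rich wells. Its fold of 0.602 (0.405 to 0.868) rested on the keratin-high wells: without these and the well with the highest feeder sum it was 0.893, and Trp53, at 0.624, was past the limit instead, so that the count of 4 stood with a different gene in it.

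**Figure D2:**
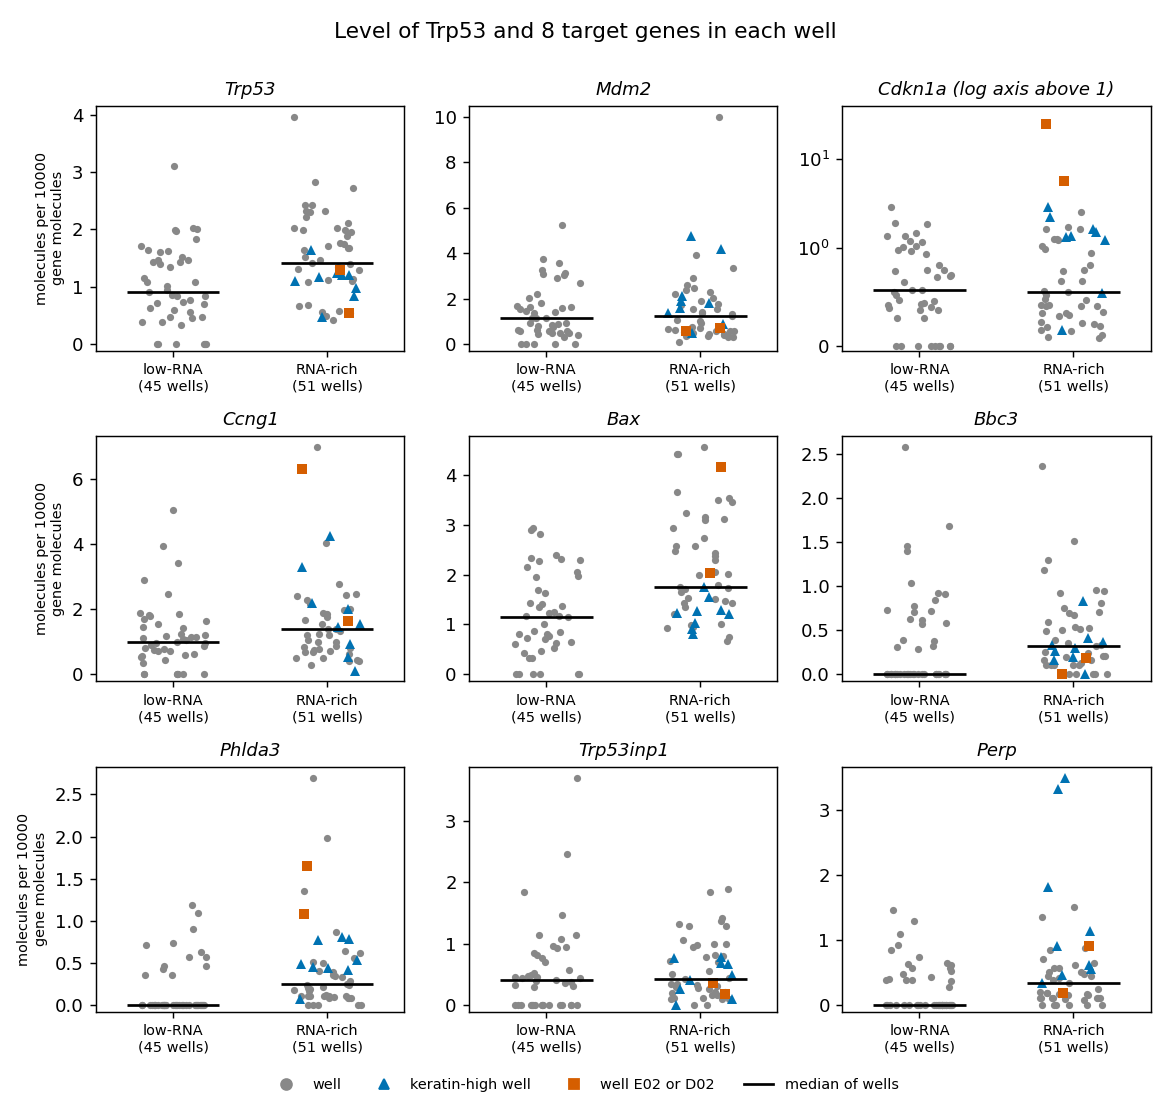
Molecules per 10000 gene molecules of each gene in each well (points), low-RNA wells on the left and RNA-rich wells on the right of every panel, with medians as lines; the Cdkn1a axis is linear to 1 and logarithmic above. The classes overlap for all 9 genes, and the squares (E02 and D02) stand out for Cdkn1a while the triangles (keratin-high wells) lead for Perp and lie low for Bax.

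A well with few molecules misses a gene more often, and a count of 0 allows a level of up to 0.844 to 3.42 in low-RNA wells (median 1.35) and up to 0.0523 to 0.584 in RNA-rich wells (median 0.304), taking 3 counts as the limit. The raw shares of wells with a molecule, 86.7% and 100% for Trp53 or 28.9% (16.4% to 44.3%, exact Clopper-Pearson) and 90.2% (78.6% to 96.7%) for Phlda3, have to be read against that depth. With every well thinned to 8000 gene molecules, the share expected to show Mdm2 was 61.3% in low-RNA and 59.4% in RNA-rich wells. Cdkn1a (42.3% and 43.9%), Bbc3 (24.4% and 26.9%) and Trp53inp1 (32.6% and 33.8%) were as close. The gaps that were left belonged to Trp53 (55.3% and 67.2%), Bax (59.01% and 76.8%), Phlda3 (13.6% and 25.4%), Perp (20.0% and 28.6%) and, less, Ccng1 (57.2% and 64.2%). For Cdkn1a, similar detection stands beside a lower pooled level, with a fold of 0.578, or 0.721 without E02. With D02 and the keratin-high wells also left out, a choice made after seeing the data, the intervals of the 2 classes overlapped. The pooled level of Cdkn1a was then 0.721 (0.647 to 0.802) in RNA-rich wells, against 0.653 (0.505 to 0.831) in low-RNA wells.

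How far wells of the same class differed was read against spike-ins, which were part of the lysis mix. Their counts were scaled by each well's spike-in total, which ran from 926 to 55740, and wells with outlying totals stayed in the fit. For each gene the squared coefficient of variation (CV) of normalised counts was divided by the value fitted to spike-ins at the same mean, and a ratio of at least 2, with and without the gene's highest well, was taken as above technical noise. Among RNA-rich wells, Mdm2, Cdkn1a, Ccng1 and Perp were above it, 4 of 9, where 6.32% of 7768 genes were; among the 2451 genes in the same range of means (4.97 to 24.2), 7.71% were. In low-RNA wells 0 of 9 were (6 had the mean of 1 that the rule needs), where 0.519% of 2695 genes were, and the ratios of the 9 were 0.319 to 0.687 around an all-gene median of 0.446. That median is below 1, so the spike-in fit lay above the variation of most genes in low-RNA wells. The count of 0 of 9 therefore does not tell whether these genes varied there beyond technical noise.

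The genes differed in how they varied. Trp53 itself was among the even ones, with 17.4 ± 8.22 normalised molecules (SD over 51 wells, as below) and a ratio of 1.11, below the all-gene median of 1.32. Bax, at 24.2 ± 12.1 and 1.71, Bbc3, at 5.08 ± 5.19 and 1.58, and Trp53inp1, at 6.59 ± 5.46 and 1.34, were likewise under the limit. Phlda3 sat at the limit, with 4.97 ± 6.02 and 2.17, or 1.54 without well A03.

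Cdkn1a was the most uneven, at 15.5 ± 39.8 and a ratio of 29.5, rank 17 of 7768 genes, and most of that was E02: without its highest well the ratio was 3.37, and with E02 left out altogether it was 3.40, or 1.87 without the next well, which is short of the limit. Mdm2 had 17.9 ± 18.4 normalised molecules and ratios of 5.41 and, without A03, 2.74. Ccng1 had 18.99 ± 15.6 and ratios of 3.64 and 2.74 without its highest well, and Perp 6.13 ± 8.17 and ratios of 3.22 and 2.40. With E02, D02 and the 9 keratin-high wells left out, a choice made after seeing the data, only Mdm2 stayed above technical noise among the remaining 40 wells (6.29, or 2.38 without A03), where 4.06% of all genes did. Ccng1 then had 3.20 and, without F10, 1.64; Cdkn1a had 1.55 and Perp 1.29. The unevenness of Cdkn1a and Perp thus lay mostly between those wells and the rest, and that of Mdm2 among the rest as well.

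**Figure D3:**
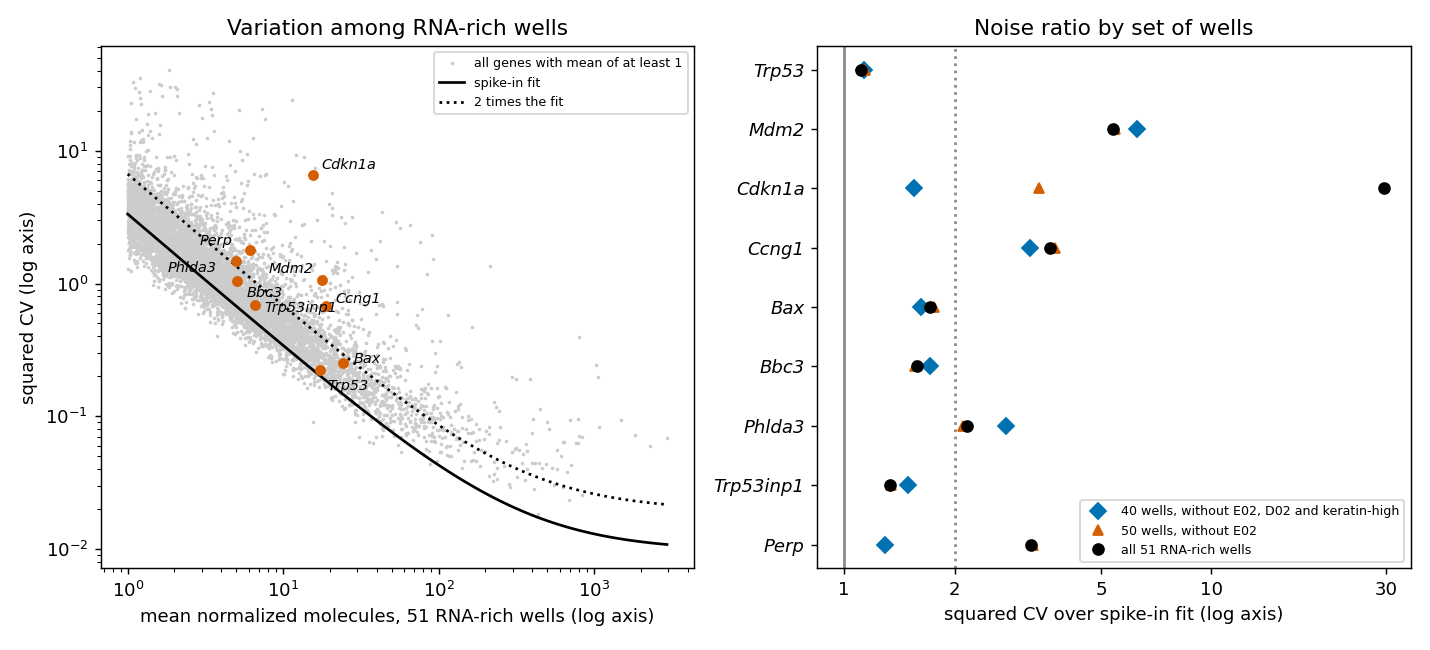
Left: squared CV against the mean of normalised counts over 51 RNA-rich wells (both log axes) for all genes (grey) and the 9 genes (orange), with the spike-in fit (line) and 2 times the fit (dotted). Right: ratio of squared CV to the fit (log axis) in 40, 50 and 51 wells; Cdkn1a is at 1.55 without E02, D02 and keratin-high wells and at 29.5 with all wells, and Mdm2 at 6.29 and 5.41.

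The wells with the highest sums of feeder fibroblast markers, E02 and D02, also had the highest Cdkn1a. E02 had 135 molecules of Cdkn1a among 54410, a level of 24.8 (20.8 to 29.4), and D02 had 31 among 55334, a level of 5.60 (3.81 to 7.95), against 0.0792 to 2.88 in the other RNA-rich wells. E02 also had Phlda3 at 1.65 and D02 at 1.08, both among the 5 highest, but Mdm2 was at 0.551 and 0.723, below the median of 1.21, and Bbc3 at 0 (up to 0.551 at 3 counts) and 0.181. D02 alone also had high Ccng1 (6.33) and Bax (4.16), and its Trp53 was low, at 0.542. Of the 12 feeder markers, 11 in E02 and 7 in D02 were above the median of the 40 RNA-rich wells that are neither of these nor keratin-high. That median was 0 for Col1a1, Col1a2, Col3a1, Thy1, Timp2 and Bgn, so any molecule of these counted as above it. In E02, Thy1 (0.184) and Col3a1 (0.368) were near 0. E02 held Col1a1 (2.57), Col1a2 (2.94), Fn1 (27.4), Timp2 (11.6) and Bgn (6.98), and only Ctgf was at 0, below the median of 0.492. D02 had 0 molecules of Col1a1, Col1a2, Col3a1 and Thy1, and Timp2 (0.181), Bgn and Ctgf (both 0.361) were near 0; its sum came mainly from Lgals1 (73.2), S100a6 (43.4), Tagln (22.2) and Fn1 (16.8). ES cell markers summed to 29.8 in E02 and 23.7 in D02. The part of feeder cells in these values was not tested.

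Other wells were high for other genes. A03, with 74154 gene molecules, had the highest Mdm2 (74 molecules, 9.98, interval 7.84 to 12.5) and the highest Phlda3 (20 molecules, 2.70). Its Perp (1.35), Bax (3.10), Ccng1 (2.02) and Cdkn1a (1.62) were above the upper quartiles of RNA-rich wells (0.617, 2.84, 2.01 and 1.25), and its Bbc3 was at 0.135; its feeder sum was 29.3 and its ES sum 44.6. G05 had the highest Trp53 (3.96) and Bax (4.55) with Phlda3 at 1.98 and Perp at 1.52, and Cdkn1a at 0.466. B05 had the highest Bbc3 (27 molecules, 2.37), with Ccng1 at 4.04, Cdkn1a at 2.55 and Trp53inp1 at 1.32. F10 led for Ccng1 (59 molecules, 6.98, interval 5.31 to 9.00), with Mdm2 at 3.90 and Bbc3 at 1.30 but Cdkn1a at 0.237. No RNA-rich well was among the 5 highest for more than 4 of the 9 genes; D02, B05 and G05 reached 4, 4 wells reached 3, and 26 were among the highest 5 for none. In low-RNA wells G11 reached 4 and 17 wells reached none. G11 had only 13617 gene molecules, and its 4 places rested on 4 molecules of Bax, 2 of Cdkn1a, 2 of Trp53inp1 and 1 of Phlda3. In B04, a low-RNA well, 15 molecules of Ccng1 (5.05) and 11 of Trp53inp1 (3.70) were the highest of the class for both.

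The 9 keratin-high wells set the targets apart from each other. Against 40 other RNA-rich wells (without E02 and D02), Perp was 3.68-fold higher (2.91 to 4.64), Cdkn1a 2.09-fold (1.72 to 2.54), Mdm2 1.77-fold (1.52 to 2.05) and Phlda3 1.57-fold (1.13 to 2.15), while Bax was lower at 0.563 (0.464 to 0.679) and Trp53 at 0.631 (0.512 to 0.772). Thus 4 of 9 were at least 1.5-fold higher and 2 of 9 lower, where 20% of all genes were higher and 20.5% lower; the median of the 9 was 1.26 and that of all genes 0.992. Perp is known from stratified and other epithelia as a part of desmosomes, the junctions to which keratin filaments attach. Its level was 0.334 to 3.50 (median 0.902) in keratin-high wells and 0 to 1.52 (median 0.183) in the other wells, and all 9 keratin-high wells were above that median. The 2 highest, A11 (18 molecules, 3.50) and G10 (44 molecules, 3.33), were also among the 5 highest for Ccng1.

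Bax and Trp53 lay on the low side in every keratin-high well. Bax was 0.816 to 1.76 (median 1.22) there and 0.663 to 4.55 (median 2.04) in the other wells, and Trp53 was 0.472 to 1.64 (median 1.17) against 0.411 to 3.96 (median 1.67); 0 of 9 keratin-high wells reached the other wells' median for either gene. Cdkn1a was above the other wells' median (0.442) in 8 of 9, with a median of 1.36, Phlda3 in 8 of 9 and Mdm2 in 7 of 9. Ccng1 (1.26-fold), Bbc3 (0.716) and Trp53inp1 (0.695) were within 1.5-fold. Total molecules did not set these wells apart, with medians of 119585 and 98749, but other markers did: feeder markers summed to 14.1 to 61.8 (median 38.6) against 4.29 to 29.3 (median 7.9996), and ES cell markers to a median of 44.9 against 113. Krt8 and Krt18 are also on the list of 7 trophectoderm markers, and gave most of its sum in keratin-high wells. They held 72.2 of 73.1 in H07 and 35.6 of 39.6 in A06, so the other markers on the list added little. The part of other cell types in the result was not tested. The comparison was chosen after seeing the data.

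**Figure D4:**
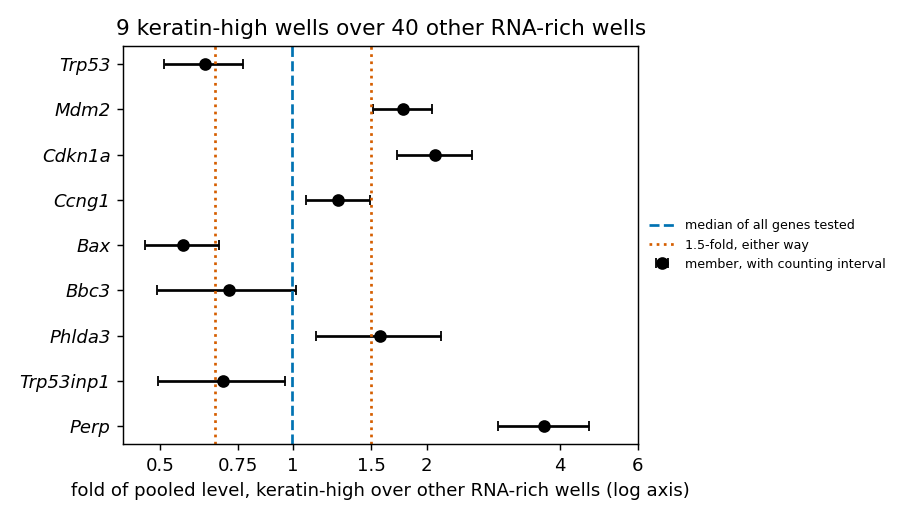
Fold of the pooled level, 9 keratin-high over 40 other RNA-rich wells (log axis), with 95% counting intervals; the dashed line is the median of all genes (0.992) and the dotted lines mark 1.5-fold either way. Perp, Cdkn1a, Mdm2 and Phlda3 lie to the right of the limit, Bax and Trp53 to the left.

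Across RNA-rich wells the targets varied together to a small degree, while Trp53 had a rank correlation below 0 with 6 of them. Over 28 pairs of targets the rank correlation of levels (Spearman's rho over 51 wells of 1 chip, as a description) had a median of 0.199, from −0.166 to 0.469; 22 pairs were above 0 and 9 reached 0.3. Over all pairs of 3151 genes whose mean reached 5 in the same wells, the median was 0.0160, with 54.04% above 0 and 3.51% at 0.3 or more, against 78.6% and 32.1% of the target pairs. Phlda3, at a mean of 4.97, is in the target pairs but outside that background, which was not matched for how much genes vary. Over the 8 pairs of Trp53 with a target the median was −0.177, from −0.350 with Perp to 0.274 with Bax. Without E02, D02 and the keratin-high wells it was −0.0946, with Perp at −0.153. In low-RNA wells the Trp53 pairs had a median of 0.135, with 3 of 8 at 0.3 or more. The target pairs had a median of −0.0243 there, and 1 reached 0.3. Counts in low-RNA wells were too sparse for either median to be read further. Whether the sign of the Trp53 pairs differs there thus cannot be told.

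The closest pairs held Ccng1. It had a rho of 0.469 with Perp, 0.450 with Mdm2 and 0.443 with Trp53inp1, and in an order of 3150 genes whose mean reached 5 these were its 2nd, 4th and 5th closest; Ccng1 in turn was the 4th closest gene of Mdm2. Without E02, D02 and the keratin-high wells, over 40 wells, the pairs of Ccng1 with Mdm2 and Trp53inp1 had 0.519 and 0.518 and that with Perp 0.413. The median of target pairs was then 0.197, against 0.00769 over all pairs of the 3151 genes, of which 4.37% reached 0.3. Mdm2 also went with Bbc3 (0.416) and Phlda3 (0.392; 0.493 in the 40 wells). Cdkn1a, the target most often used as a readout of p53, had 0.380 with Perp, 0.310 with Mdm2 and 0.245 with Ccng1, or 0.277, 0.228 and 0.153 in the 40 wells. The feeder sum moved with several of these genes, with a rho of 0.568 for Perp, 0.476 for Phlda3, 0.473 for Cdkn1a, 0.383 for Ccng1 and 0.335 for Mdm2, against −0.0197 for Trp53inp1, −0.159 for Bax and −0.307 for Trp53, and its part in the correlations was not tested beyond the 40 wells. Other sums moved too. With the summed Krt8 and Krt18 level, Perp had 0.518, Phlda3 0.288, Mdm2 0.285, Cdkn1a 0.237, Ccng1 0.231 and Bbc3 0.166. Trp53inp1 had −0.0547, Trp53 −0.210 and Bax −0.370. With the ES sum, Perp had −0.461, Cdkn1a −0.433, Phlda3 −0.360, Ccng1 −0.217 and Mdm2 −0.199. Bbc3 had 0.0172, Trp53inp1 0.0687, Bax 0.184 and Trp53 0.331. The parts of these sums were not told apart.

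**Figure D5:**
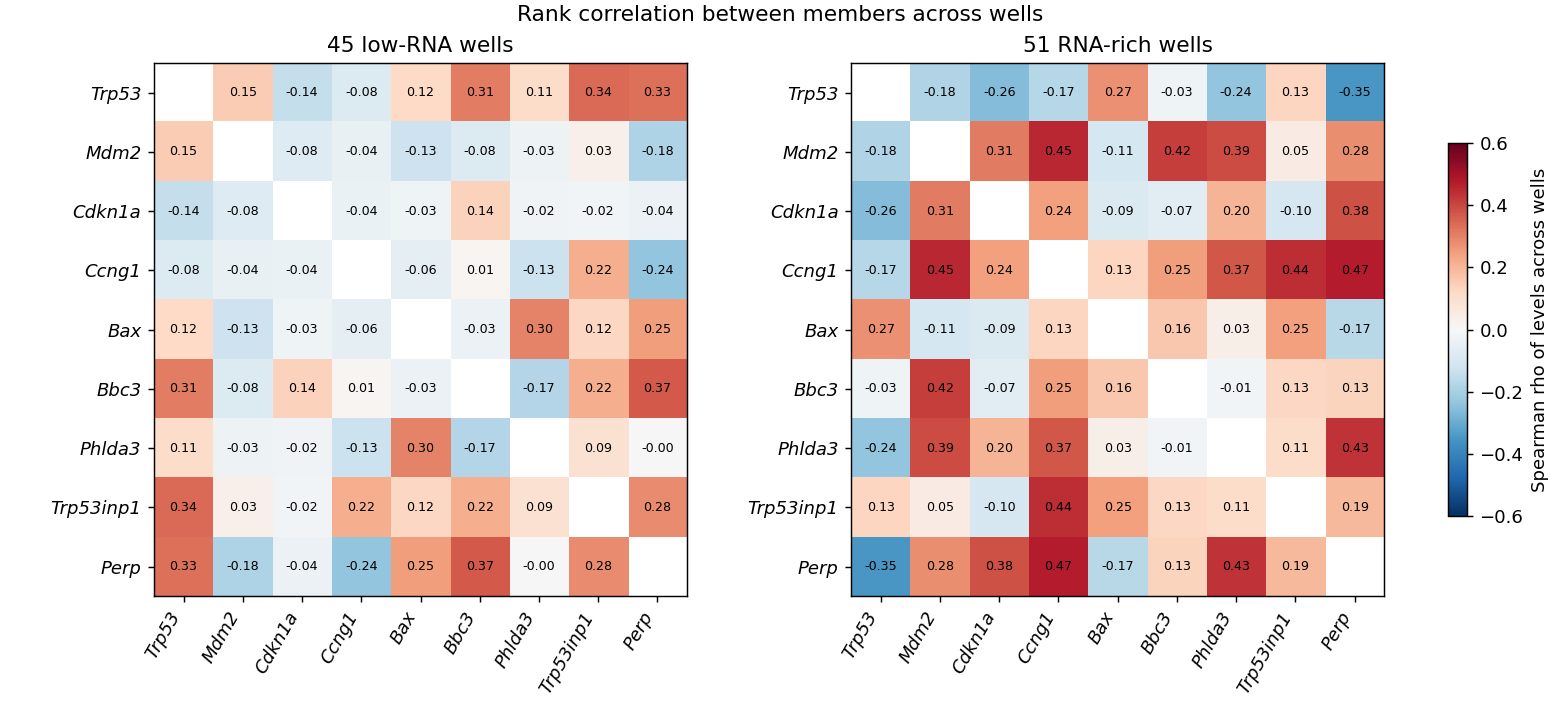
Spearman's rho of levels for each pair of the 9 genes over 45 low-RNA wells (left) and 51 RNA-rich wells (right), in colour and number. In RNA-rich wells the pairs of Ccng1 with Perp (0.47), Mdm2 (0.45) and Trp53inp1 (0.44) are the highest, and most pairs of Trp53 are below 0.

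The genes most like each of the 9 were sought among 3151 genes whose mean reached 5 over the same 51 wells. Phlda3, at 4.97, was below that mean. Those named are the 3 highest of 3150 rank correlations for a gene. How high unrelated genes would reach among so many was not tested. E02, D02 and the keratin-high wells are among the 51. Cdkn1a had the closest neighbours: Wls (0.670), which carries Wnt proteins to the surface, Msn (0.579), a linker of actin to the membrane, and B2m (0.565), the light chain of class I MHC. Perp was closest to S100a6 (0.599), a calcium-binding protein that is on the feeder marker list, Gnas (0.576) and Cald1 (0.553), and Mdm2 to Hbegf (0.588), a ligand of the EGF receptor, Pbrm1 (0.482) and Tmem160 (0.456). Btg2, an antiproliferative gene and itself a p53 target, was among the 3 closest of both Ccng1 (0.453, after Ctsd at 0.473 and Perp) and Trp53inp1 (0.482, with Gtse1 at 0.538 and BC003965 at 0.470). Gtse1 is a p53 regulator of G2 and M phase. Bbc3 was closest to Lbr (0.535), Stag2 (0.522) and Ube2n (0.512), Trp53 to Polr2k (0.518), Ube2l3 (0.515, with 27.8% of its molecules from unique reads) and 1810035L17Rik (0.503), and Bax to Rps10 (0.446), Bcat2 (0.414) and Calm3 (0.395).

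Of 69 other genes of the p53 pathway, 67 were matched in the table and 51 had enough molecules to be compared. Of those, 21 were at least 1.5-fold lower in low-RNA than in RNA-rich wells and 5 higher, with a median fold of 0.764, about that of all genes (38% lower, 10.7% higher, median 0.760). Regulators of p53 gave 6 lower and 3 higher of 17; of the 3 higher, Hipk2 and Rfwd2 are uncertain, with 9.09% and 33.9% of molecules from unique reads, and Ep300 had a fold of 1.63 (these 3 are named after their values were seen). Cdkn2a, whose product Arf blocks Mdm2, had levels of 0.109 and 0.281 in low-RNA and RNA-rich wells (fold 0.387), and Aurka, a mitotic kinase that phosphorylates p53, 1.06 and 1.89 (0.561). Rpl5 (0.752) and Rpl11 (0.606), ribosomal proteins that bind Mdm2, had under 40% from unique reads (36.2% and 38.8%) and are uncertain.

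Genes of cell cycle arrest gave 4 lower and 1 higher of 10, where 38% of all genes were lower and 10.7% higher. The counts of lower genes in this and the following lists are near that share and are no result about these genes. Sfn (14-3-3 sigma) had 1.36 and 3.66 in low-RNA and RNA-rich wells, a fold of 0.370, and Gadd45a, a stress sensor, 0.376 and 0.120, a fold of 3.13 from 38 and 70 molecules. Btg2 (0.849) and Plk2 (0.713), a polo-like kinase, were within the limit. Genes of apoptosis gave 7 lower and none higher of 15 (0 of 15): Bak1, the partner of Bax, had a fold of 0.396 from 7 and 102 molecules, Diablo 0.542 and Mcl1, which restrains Bak1, 0.864. Cycs, cytochrome c, had 0.600 with only 2.51% of its molecules from unique reads and is uncertain. Genes of repair, metabolism and other functions gave 4 lower and 1 higher of 9, among them Ak1 (0.282), Abhd4 (0.419), Dcxr (0.561) and Pml (1.04). Above technical noise in RNA-rich wells were 6 of the 49 with a mean of at least 1, beside the 6.32% of all genes: Sfn (ratio 23.5), Btg2 (6.06), Plk2 (5.71), Cycs (2.63), Aurka (2.39) and Eda2r (2.35), a receptor of the TNF family named here after its value was seen.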

How the data were processed

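The deposited values were molecule counts per gene and cell barcode, made by the authors. A read that matched several places counts, per the file headers, at its most 5′ exonic match, and such reads gave 26.7% of gene molecules. Bowtie and the build mm10 (GRCm38) are named, without versions, in the submitters' processing notes. Each of the 96 columns carries 1 barcode that the labels give to a library as made and to the same library after 9 more cycles, so the 2 forms were not compared. The table's other column of totals, also counts, gives the molecules from unique reads.

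Rows of chromosome CTRL (spike-ins) and of repeats were left out of the total of each well, and molecules were divided by that total. Folds are of summed counts, with exact 95% intervals (Poisson for a level, conditional binomial for a fold), and need at least 50 molecules. The spike-in fit was squared CV = 3.33/mean + 0.00970, over the 62 spike-ins whose mean reached 0.1 (gamma model, identity link). Expected detection after thinning to 8000 gene molecules was computed without drawing. Python 3.11.15, numpy 2.4.6, pandas 2.3.3, scipy 1.17.1 and matplotlib 3.10.9 were used, and the scripts were tested on simulated data.

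The 9 genes, the pathway lists and the markers were chosen with earlier results of these data known. Named beside the 9 are, in each pathway list, the 3 genes with the highest pooled level and the 2 with the largest fold either way among those with at least 50 molecules, and the 3 genes with the highest rho to each of the 9. Pidd1 and Tigar were not matched by name. Eda2r, Ep300, Hipk2 and Rfwd2 are named outside that rule. A gene that the rule names is not reported here. Wells C03, H03 and H12 had spike-in totals more than 4 times above or below the median; leaving them out was among the alternatives, as were other totals, other limits of the classes and other sets of wells; those that leave out E02, and the set of keratin-high wells as a group of its own, were chosen after seeing the data.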

Additional observations from a re-analysis of the deposited data

How the results depend on the processing

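The folds between low-RNA and RNA-rich wells depend on what a level is relative to. The number of the 9 genes past 1.5-fold was 4 as reported, where 38% of all genes were lower and 10.7% higher. It was 1 without mitochondrially encoded genes and Rn45s in the total (13.9% and 22.1%), and 9 per spike-in molecule. The median fold was 0.671, then 0.900 (all genes 1.02) and 0.209 (all genes 0.236). Per spike-in molecule nearly all genes were lower (96.3%). With the classes divided at the median total, 4 genes were past the limit and the median fold was 0.908 (all genes 0.799). Of all genes, 33.1% were then lower and 11.7% higher. The other 5 alternatives gave 3 to 5 genes and medians of 0.665 to 0.878. In those 5, 36.1% to 39.6% of all genes were lower and 10.2% to 16.9% higher. These counts are near the share of all genes and are no result about the 9. In each of these alternatives with a gene past the limit, all such genes were lower.

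The number above technical noise in RNA-rich wells was 4. It was 1 (Mdm2) without the keratin-high wells and D02, where 4.72% of all genes were above. Without E02, D02 and the keratin-high wells it was 1 (Mdm2, 4.06% of all genes), and without E02 it was 3 (5.74%). Those last 2 sets were chosen after seeing the data. In low-RNA wells it was 0 (0.519%). It was 4 with spike-in normalisation (11.2% of all genes) and without wells of outlying spike-ins (7.02%). It was also 4 with the limit on the mean at 5 (13.2%) or 0.5 (5.21%) in place of 1 (6.32%). The median rho between targets was 0.199, and −0.0243 in low-RNA wells. No paired analysis was possible because the table holds 1 column for both library forms. Depth limits every statement on low-RNA wells: Phlda3 rests on 18 molecules there. Wells of 1 culture and 1 chip say nothing of other cultures, and intervals cover counting error only.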
